A study of Rattus norvegicus with 24 samples.

Results

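The genes described here code for the complement and coagulation factors of rat liver, and comprise 16 complement components and proteases, 14 clotting and fibrinolysis genes and 10 inhibitors of these cascades. They were selected by gene name, from a list drawn up with earlier results of these data known. All probes annotated to any of these 40 gene names were taken. Each gene was represented by its brightest probe, so that the set makes up 40 of the 19958 genes on the array. Male Wistar rats, whose age the labels do not state, received for 42 days a diet with 1% cholesterol, either alone (Ch), with 5% lyophilised fruit of *Actinidia arguta* cultivar Geneva (ChGENE) or with 5% lyophilised fruit of *Actinidia deliciosa* cultivar Hayward (ChHAYW). Each diet had 8 rats, and liver RNA selected for high integrity was hybridised on a 1-colour Agilent array for each rat. The cholesterol load was shared by all 3 diets, so every comparison is between loaded livers. The comparisons ask which genes differ in the loaded liver with either kiwifruit, and between the kiwifruits.

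Complement is a cascade of plasma proteases in which the classical, lectin and alternative pathways meet at C3, after which the terminal components build a pore in the target membrane. Coagulation is a second cascade of zymogens that ends with thrombin, which turns fibrinogen into fibrin, while plasmin dissolves the fibrin again. Hepatocytes secrete most of these proteins and most of their inhibitors, and several of them are acute phase proteins whose synthesis is raised by interleukin-6 during inflammation.

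Fibrinogen is a hexamer with a pair each of alpha, beta and gamma chains, and its 3 genes lie side by side on chromosome 2. Their probes are printed because the chains were compared with each other, and because *Fgb* was read by a pair of oligonucleotides. The coordinates are those of the array annotation in the rn4 build.
*Fga* probe, chr2:174751982-174752041, plus strand: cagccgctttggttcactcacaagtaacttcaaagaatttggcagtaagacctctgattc
*Fgg* probe, chr2:174732484-174732543, plus strand: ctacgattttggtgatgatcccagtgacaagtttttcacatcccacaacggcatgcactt
*Fgb* brightest probe, chr2:174768230-174768289, minus strand: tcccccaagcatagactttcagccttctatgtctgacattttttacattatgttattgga
*Fgb* second probe, chr2:174767192-174767251, minus strand: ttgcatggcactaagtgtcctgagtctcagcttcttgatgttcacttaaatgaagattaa
The *Fga* and *Fgb* probes start 16.2 kb apart and the *Fga* and *Fgg* probes 19.5 kb apart. A further sequence is that of *C6*, a component of the membrane attack complex, which spread most among rats.
*C6* probe, chr2:53764375-53764434, plus strand: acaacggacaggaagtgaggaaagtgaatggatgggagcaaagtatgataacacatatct

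The promoters of the fibrinogen genes are shown because *Fga* and *Fgg* moved together across the rats, while *Fgb* did so after quantile and spike-in scaling but not under the 75th percentile scaling or after cyclic loess. They are the 250 bases before the start of each gene in RefSeq, build GRCr8, and capitals mark matches of any of 4 motifs on either strand.
*Fga*, chr2:170671919-170672168, plus strand: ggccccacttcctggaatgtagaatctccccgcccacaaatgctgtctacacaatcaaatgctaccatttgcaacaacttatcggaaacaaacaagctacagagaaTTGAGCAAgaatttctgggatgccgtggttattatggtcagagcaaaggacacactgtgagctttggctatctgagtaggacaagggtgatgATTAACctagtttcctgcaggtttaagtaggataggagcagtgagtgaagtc
*Fgg*, chr2:170652833-170653082, plus strand: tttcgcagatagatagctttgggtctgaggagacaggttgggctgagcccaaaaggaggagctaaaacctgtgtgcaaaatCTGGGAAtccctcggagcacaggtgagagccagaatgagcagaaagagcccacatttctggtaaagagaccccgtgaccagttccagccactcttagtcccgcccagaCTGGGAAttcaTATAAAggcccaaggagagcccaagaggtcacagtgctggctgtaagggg
*Fgb*, chr2:170700876-170701125, minus strand: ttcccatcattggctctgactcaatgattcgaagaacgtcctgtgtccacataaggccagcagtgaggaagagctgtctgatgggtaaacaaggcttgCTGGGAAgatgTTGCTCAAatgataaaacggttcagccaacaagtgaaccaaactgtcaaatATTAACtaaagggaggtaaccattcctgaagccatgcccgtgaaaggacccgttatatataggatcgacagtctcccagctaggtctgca
The motifs were TATAAA (the TATA box), GTTAAT (the core bound by hepatocyte nuclear factor HNF1), CTGGGAA (the interleukin-6 response element) and TTGCNNAA (bound by C/EBP factors). The *Fga* promoter matched the HNF1 and C/EBP motifs, that of *Fgg* matched the TATA box and, at a pair of sites, the interleukin-6 element, and that of *Fgb* matched all but the TATA box. RefSeq windows of 300 bases, with 250 before and 50 after the start, were given for 32 of the 40 genes, and the first of 2 starts was used for *Fga*. Among these 32, 10 (31.2%) held GTTAAT against 7.45% of all 33469 promoters, 10 (31.2%) held CTGGGAA against 11.3%, 12 (37.5%) held TTGCNNAA against 10.6% and 2 (6.25%) held TATAAA against 14.2%. At least 1 of the motifs was found in 20 of the 32, and the share of all promoters with any of them was not computed. A match of letters is a description of the window, and no test was made of it.

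The level of a gene is given here as the log2 signal of its probe minus the log2 of the 75th percentile of the signals of its array, so that 0 is the brightness of that percentile and a step of 1 is 2-fold. All 40 genes were above background on all 24 arrays, so none was lost to a filter on dim probes, and 33 of them lay in the brightest 10% of the genes. The hepatocyte markers were above background in 12 of 12 cases. The arrays of Ch were dimmer, their 75th percentile signals lying between 188 and 653 (median 421), while those of ChGENE lay between 388 and 775 (675) and those of ChHAYW between 409 and 1049 (731). The effect of diet cannot be told apart from that of the slide, since each diet had its own slide. In whole liver, fewer cells of a type and less RNA per cell cannot be told apart either.

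A pair of arrays in each diet was far more alike than any other pair. Over 14045 probes the SD of the log2 difference was 0.18 to 0.22 between Ch 1 and Ch 2, ChGENE 4 and ChGENE 5, and ChHAYW 6 and ChHAYW 7. It was 0.36 to 1.00 between the other 81 pairs of rats on the same diet, and 0.35 to 1.13 between the 192 pairs on different diets. The labels name all 8 rats of a diet as biological replicates, and 0 pairs of arrays held identical values. Results are therefore also given with each close pair averaged, which leaves 7 values per diet. ChGENE 4 and ChGENE 5 further stood apart from the remaining 22 arrays in many of these genes, and results are given without both.

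To pass, a probe needed a fold of 1.3 or more and an adjusted p under 0.05 in limma's moderated test, and none of the 40 genes did so in any of the 3 comparisons. The count was 0 of 40 in the ChGENE-Ch comparison, where 0.319% of the 30367 probes passed, 0 of 40 in the ChHAYW-Ch comparison, where 0% passed, and 0 of 40 between ChGENE and ChHAYW, where 0.00659% passed. The test of the study's methods, a t-test with the same adjustment, also called 0 of 40 in each comparison. At an unadjusted p under 0.05 of limma, 6, 12 and 5 genes were found, respectively. With the fold threshold added, 3, 7 and 4 of the 40 were lower and 0, 0 and 1 higher in the group named first. The background shares of lower probes by this rule were 21.1%, 19.7% and 2.85%, and those of higher probes 3.47%, 3.05% and 3.09%. The 3 lower genes in ChGENE-Ch and the 7 in ChHAYW-Ch thus make up no larger a share of the 40 than of all probes, while the 4 lower genes between the kiwifruits make up a larger share. The count before the fold threshold, in either direction, depended on the fit. The 5 genes with an unadjusted p under 0.05 between the kiwifruits became 2 with all 24 arrays in 1 fit, 3 under spike-in scaling and 8 without ChGENE 4 and ChGENE 5. The shares of all probes in those fits are not given here, so whether the larger share of lower genes holds in them was not tested. The groups overlapped in every comparison for all 40 genes, whereas they did not overlap for 135, 11 and 26 of the 19958 genes (0.676%, 0.0551% and 0.130%).

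The signs of the differences were divided, and depended on how the arrays were scaled. In the ChGENE-Ch comparison 14 genes had a higher and 26 a lower mean in ChGENE under the 75th percentile scaling, but 25 of 40 were higher after quantile or cyclic loess normalization and 40 of 40 after scaling to the spike-in probes. In the ChHAYW-Ch comparison 13 were higher and 27 lower, while 21 were higher after quantile, 17 after cyclic loess and 38 after spike-in scaling. The median log2 difference of the 40 was -0.17 in ChGENE-Ch, beside -0.13 over all genes and -0.14 over the brightest 10%, and 0.30 beside 0.34 over all genes under spike-in scaling. It was -0.19 in ChHAYW-Ch, beside -0.15 over all genes and -0.11 over the brightest 10%, and 0.46 beside 0.50 under spike-in scaling. Between ChGENE and ChHAYW it was 0.07 beside -0.01, and -0.11 beside -0.19 under spike-in scaling. With the close pairs averaged, the medians were -0.22, -0.18 and -0.02, and 0 of 40 genes passed in each comparison.

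**Figure D1:**
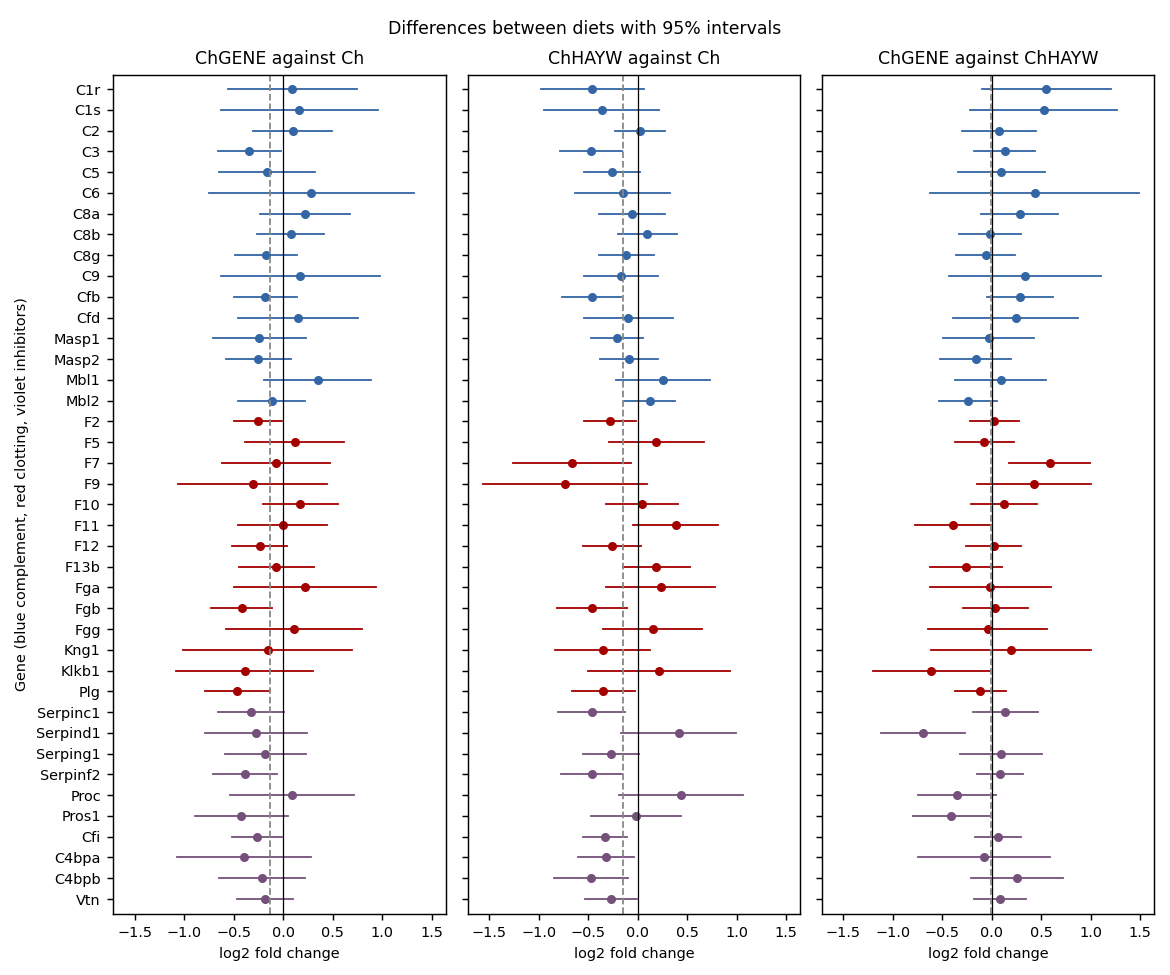
Log2 differences between diets for the 40 genes under the 75th percentile scaling, with points for the differences and bars for the 95% confidence intervals (8 rats per diet). The dashed line is the median over all genes, and most intervals cross 0. Under spike-in scaling 40 genes of ChGENE-Ch and 38 of ChHAYW-Ch lie above 0.

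Divided by role, the median log2 difference in ChGENE-Ch was 0.08 for the complement genes, -0.12 for the clotting genes and -0.27 for the inhibitors, and all 3 were above 0 under spike-in scaling (0.55, 0.35 and 0.20). In ChHAYW-Ch it was -0.13, -0.11 and -0.29, and again above 0 under spike-in scaling (0.52, 0.54 and 0.36). Between ChGENE and ChHAYW it was 0.11, 0.00 and 0.07, and below 0 under spike-in scaling (-0.07, -0.18 and -0.11). Without ChGENE 4 and ChGENE 5 the complement median of ChGENE-Ch was -0.25 in place of 0.08.

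**Figure D2:**
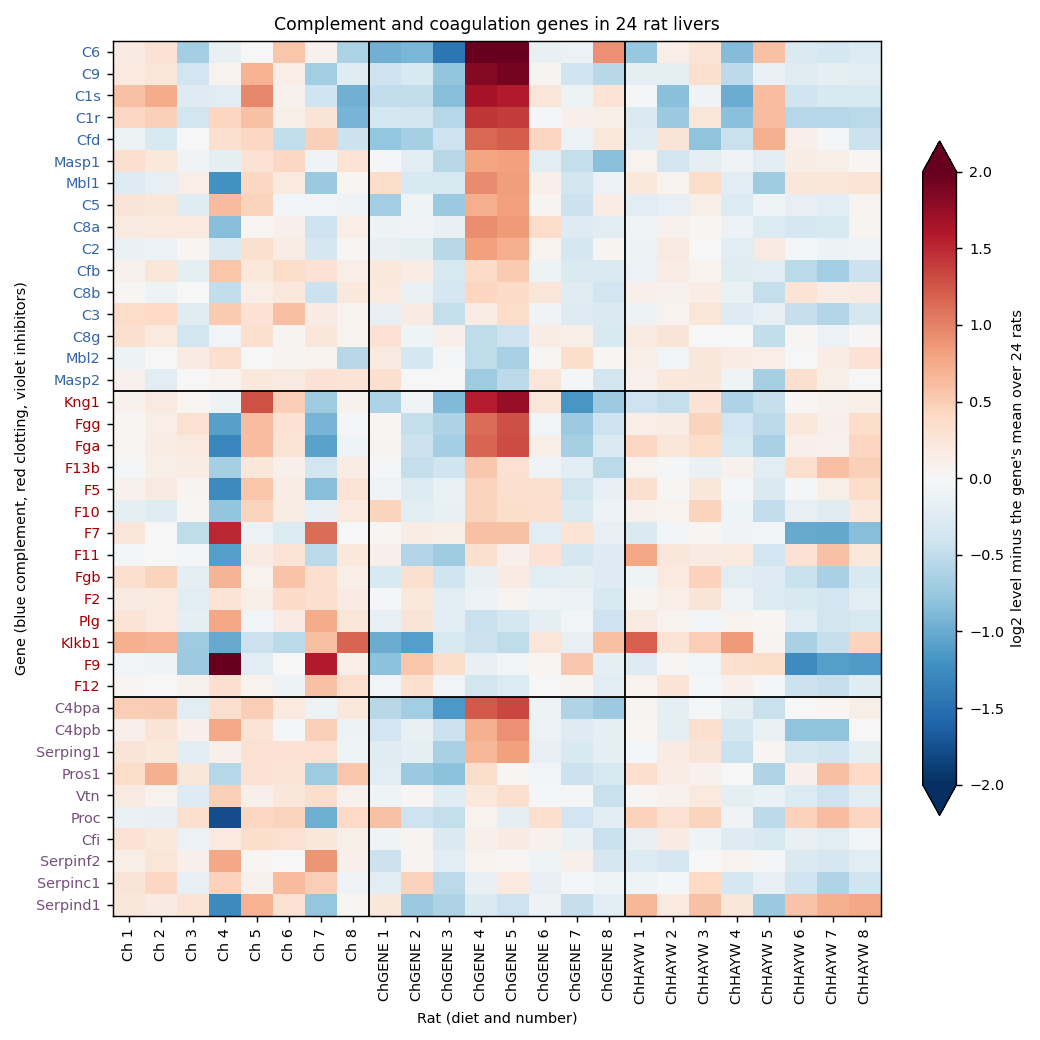
Level of each gene (rows, ordered by role) in each of the 24 rats (columns), as log2 level minus the mean of that gene over all rats, with red above and blue below the mean. The columns of ChGENE 4 and ChGENE 5 are red over most complement genes, with *C6* at 4.30 and 4.32, and those of Ch 4 and Ch 7 show a pattern of their own.

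Among the complement genes, the component C3 and its convertase protease factor B gave the smallest p values. *C3*, on which all pathways meet, ranged from 8.31 to 9.16 in Ch (median 8.88), from 8.08 to 8.92 in ChGENE (8.43) and from 7.96 to 8.80 in ChHAYW (8.34). The kiwifruit groups reached lower than Ch, but the 3 ranges overlapped. The log2 difference was -0.34 in ChGENE-Ch (95% interval -0.66 to -0.02, adjusted p = 0.158) and -0.47 in ChHAYW-Ch (-0.79 to -0.16, adjusted p = 0.110). *Cfb*, the protease subunit of the alternative C3 convertase, ranged from 6.78 to 7.53 in Ch (7.20), 6.65 to 7.49 in ChGENE (6.99) and 6.28 to 7.12 in ChHAYW (6.74). Its difference was -0.46 in ChHAYW-Ch (-0.77 to -0.16, unadjusted p = 0.0047, adjusted p = 0.110) and -0.18 in ChGENE-Ch (adjusted p = 0.474). Under spike-in scaling both genes had a higher mean in the kiwifruit groups, by 0.13 and 0.29 in ChGENE-Ch and by 0.18 and 0.19 in ChHAYW-Ch for *C3* and *Cfb*, respectively.

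The proteases of the C1 complex, *C1r* and *C1s*, start the classical pathway, and their probes lie 8.1 kb apart on chromosome 4. *C1r* ranged from 4.43 to 5.96 in Ch (median 5.71), 4.81 to 6.80 in ChGENE (5.40) and 4.53 to 5.99 in ChHAYW (4.82). *C1s* ranged from 3.35 to 5.27 in Ch (4.25), 3.47 to 5.98 in ChGENE (4.39) and 3.32 to 4.93 in ChHAYW (4.00). In both genes the top of the ChGENE range came from ChGENE 4 and ChGENE 5. The log2 differences of *C1r* were 0.09 in ChGENE-Ch and -0.46 in ChHAYW-Ch (adjusted p = 0.878 and 0.253), and those of *C1s* 0.16 and -0.36 (0.818 and 0.408). Between ChGENE and ChHAYW they were 0.55 and 0.52, and 0.15 and 0.06 without ChGENE 4 and ChGENE 5.

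Of the lectin pathway, *Mbl1*, a mannose-binding lectin, ranged from 2.36 to 3.99 in Ch (3.51), 3.21 to 4.53 in ChGENE (3.57) and 2.87 to 3.94 in ChHAYW (3.80). Its paralog *Mbl2* ranged from 1.90 to 2.79 (2.48), 1.80 to 2.80 (2.44) and 2.39 to 2.73 (2.58). Differences from Ch were 0.35 and 0.26 for *Mbl1* and -0.12 and 0.12 for *Mbl2*, none with an adjusted p under 0.408. The associated proteases *Masp1* and *Masp2* gave -0.24 and -0.25 in ChGENE-Ch and -0.21 and -0.09 in ChHAYW-Ch. Their ranges in ChGENE were wide, from 2.15 to 3.81 and from 3.83 to 4.87.

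The terminal components form the membrane attack complex. *C6* had the largest spread within diets of the 40 genes, with an SD of 0.92. It ranged from 1.33 to 2.58 in Ch (2.06), 0.58 to 4.32 in ChGENE (1.88) and 1.15 to 2.60 in ChHAYW (1.74), so that ChGENE held both the lowest and the highest rat. Its difference in ChGENE-Ch was 0.29 with an interval of -0.75 to 1.32, and -0.40 without ChGENE 4 and ChGENE 5. *C9*, which forms the pore, ranged from 5.50 to 6.89 in Ch (6.30), 5.41 to 8.12 in ChGENE (5.86) and 5.68 to 6.53 in ChHAYW (6.01). It moved from 0.17 to -0.40 on leaving out the same rats. The 3 chains of C8 differed by no more than 0.22 from Ch in either comparison, with means in Ch of 4.63 for *C8a*, 4.04 for *C8b* and 6.38 for *C8g*.

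The remaining complement genes gave no unadjusted p under 0.05 in any comparison. *C2*, the protease of the classical C3 convertase, had medians of 2.98, 2.97 and 2.98. *C5*, which starts the terminal pathway, had medians of 6.69, 6.59 and 6.44. *Cfd*, or adipsin, which cleaves factor B, had medians of 2.30, 2.40 and 2.21. The medians of these 3 genes lay closer together than the ranges of any of the groups.

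Of the clotting genes, plasminogen and the beta chain of fibrinogen gave the smallest p values in ChGENE-Ch. *Plg*, the zymogen of plasmin, ranged from 7.42 to 8.39 in Ch (7.83), 7.17 to 7.86 in ChGENE (7.41) and 7.24 to 7.79 in ChHAYW (7.60). The log2 difference was -0.46 in ChGENE-Ch (-0.79 to -0.13, unadjusted p = 0.0086, adjusted p = 0.0717) and -0.35 in ChHAYW-Ch (adjusted p = 0.172). It was 0.00 and 0.30 under spike-in scaling. A second and dimmer *Plg* probe differed by 0.26 in the other direction in ChGENE-Ch (adjusted p = 0.595), so that the probes of this gene disagreed.

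The 3 fibrinogen chains did not give the same reading. *Fgb* ranged from 8.54 to 9.42 in Ch (9.06), 8.35 to 9.06 in ChGENE (8.54) and 8.10 to 9.20 in ChHAYW (8.50). Its log2 difference was -0.42 in ChGENE-Ch (-0.73 to -0.11, adjusted p = 0.0785) and -0.46 in ChHAYW-Ch (-0.81 to -0.10, adjusted p = 0.117). *Fga* ranged from 6.02 to 7.93 in Ch (7.41), 6.64 to 8.62 in ChGENE (7.20) and 6.67 to 7.75 in ChHAYW (7.49). Its differences of 0.22 and 0.23 had intervals that spanned 0 (adjusted p = 0.721 and 0.575). *Fgg* ranged from 6.52 to 8.23 in Ch (7.69), 6.89 to 8.91 in ChGENE (7.39) and 7.10 to 8.07 in ChHAYW (7.76), with differences of 0.11 and 0.15. Under spike-in scaling all 3 chains had a higher mean in the kiwifruit groups, with 0.05 and 0.19 for *Fgb*, 0.69 and 0.88 for *Fga* and 0.58 and 0.80 for *Fgg*.

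Across the 24 rats *Fga* and *Fgg* had a Pearson r of 0.99 (rho 0.96). The permutation p was 1e-05, the smallest that 100000 permutations can give, and 5.5e-05 after adjustment over the 11 pairs of partner genes tested. Without the 2 rats farthest from the median of *Fga* the r was 0.98, and it was 1.00, 1.00 and 0.93 within Ch, ChGENE and ChHAYW. *Fga* and *Fgb* gave -0.10 (rho 0.06, adjusted p = 0.881, r 0.05 without the 2 farthest rats), with -0.49, 0.30 and 0.32 within the diets. *Fgb* and *Fgg* gave -0.07. The r of *Fga* and *Fgb* was 0.71 after quantile normalization, 0.08 after cyclic loess and 0.90 after spike-in scaling, where the median r over all pairs of the 40 genes was 0.33, 0.32 and 0.77, compared with 0.23 under the 75th percentile scaling. Whether *Fgb* parted from the other chains thus depended on the scaling. The second *Fgb* probe had medians of 0.57, -0.06 and -0.32 in Ch, ChGENE and ChHAYW and a log2 difference of -0.82 in ChHAYW-Ch (adjusted p = 0.110). With the brightest *Fgb* probe it gave an r of 0.45 (adjusted permutation p = 0.103 over 4 relations) and a rho of 0.66 (adjusted p = 0.0024), and r was 0.41 without the 2 farthest rats and 0.70 without ChGENE 4 and ChGENE 5. With *Fga* it gave 0.34 (rho 0.28, adjusted p = 0.141), 0.44 without the 2 farthest rats and -0.26 without ChGENE 4 and ChGENE 5, with -0.76, 0.93 and 0.55 within the diets.

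**Figure D3:**
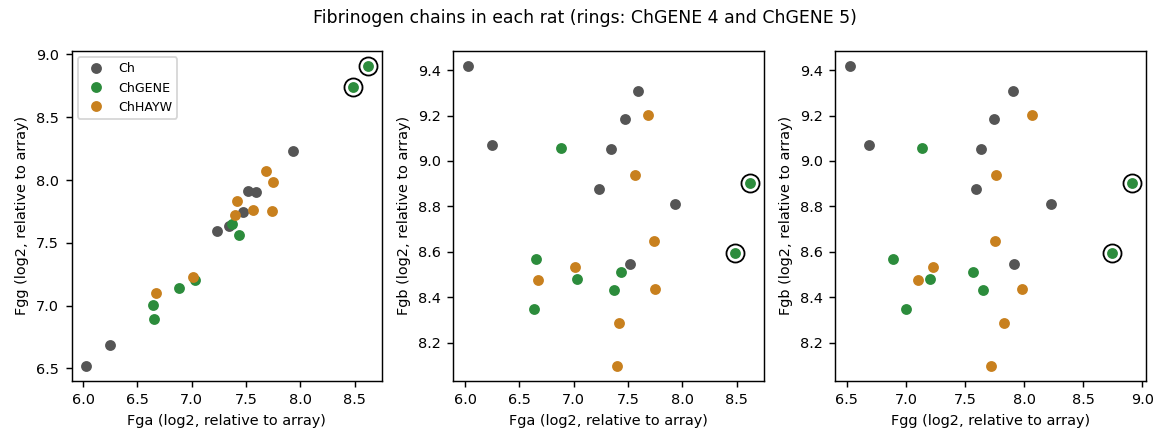
Levels of the fibrinogen chains in each of the 24 rats (log2 relative to the array, 1 point per rat, coloured by diet, rings for ChGENE 4 and ChGENE 5). *Fga* and *Fgg* lie on a line (r = 0.99), while *Fgb* gives -0.10 with *Fga* and -0.07 with *Fgg*.

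Of the other clotting genes, *F2*, which codes for prothrombin, was among those with the least spread, with an SD within diets of 0.20. It ranged from 7.91 to 8.52 in Ch (8.32), 7.81 to 8.35 in ChGENE (8.04) and 7.75 to 8.39 in ChHAYW (7.99), and differed from Ch by -0.26 and -0.28 (adjusted p = 0.167 and 0.183). *F7*, the zymogen that starts the tissue factor pathway, ranged from 0.62 to 2.65 in Ch (1.12), 0.91 to 1.72 in ChGENE (1.26) and 0.11 to 1.17 in ChHAYW (0.95). It was the single gene with an unadjusted p under 0.05 and a higher mean in ChGENE than in ChHAYW, by 0.58 (0.17 to 0.99, adjusted p = 0.407). *F9*, a vitamin K-dependent zymogen, ranged from 2.72 to 5.61 in Ch (3.42), 2.64 to 4.01 in ChGENE (3.45) and 2.19 to 3.82 in ChHAYW (3.29). The difference of -0.74 in ChHAYW-Ch had an interval of -1.56 to 0.09, and the medians of the 3 groups differed by less than 0.2.

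In the contact pathway, *F11* and *Klkb1*, which code for factor XI and plasma prekallikrein and lie 23.9 kb apart on chromosome 16, had lower means in ChGENE than in ChHAYW. *F11* ranged from 0.23 to 1.61 in Ch (1.32), 0.62 to 1.66 in ChGENE (1.26) and 0.95 to 2.11 in ChHAYW (1.55). *Klkb1* ranged from 2.76 to 4.93 (3.86), 2.68 to 4.38 (3.41) and 3.13 to 4.98 (4.13). The differences between ChGENE and ChHAYW were -0.39 and -0.61, with unadjusted p values of 0.0474 and 0.0451 and adjusted ones of 0.594 and 0.589. *Kng1*, the kininogen cofactor and source of bradykinin, ranged from 5.87 to 7.85 in Ch (6.66), 5.41 to 8.31 in ChGENE (6.23) and 5.95 to 6.86 in ChHAYW (6.38). Rats carry further kininogen genes of near-identical sequence, so this probe may read more than 1 of them.

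*F12*, the Hageman factor, had medians of 6.69, 6.56 and 6.57. *F10*, which activates prothrombin, had 5.09, 5.26 and 5.14. The cofactor gene *F5* had 2.86, 2.65 and 2.81, and *F13b*, the carrier subunit of factor XIII, had 0.88, 0.62 and 0.84. None of these 4 genes reached an unadjusted p under 0.05 in any comparison.

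Among the inhibitors, *Serpinc1*, which codes for antithrombin, ranged from 7.69 to 8.50 in Ch (8.20), 7.32 to 8.33 in ChGENE (7.74) and 7.26 to 8.26 in ChHAYW (7.61). It differed by -0.33 in ChGENE-Ch (adjusted p = 0.192) and by -0.46 in ChHAYW-Ch (-0.80 to -0.13, adjusted p = 0.110). *Serpinf2*, or alpha-2-antiplasmin, ranged from 4.90 to 5.77 in Ch (5.00), 4.46 to 4.99 in ChGENE (4.86) and 4.55 to 4.97 in ChHAYW (4.63). Its differences were -0.39 (-0.71 to -0.06, adjusted p = 0.118) and -0.46 (adjusted p = 0.110), and the upper end of the Ch range rested on Ch 4 and Ch 7 with 5.66 and 5.77. Under spike-in scaling both genes lay above 0 against Ch, with 0.14 and 0.19 for *Serpinc1* and 0.08 and 0.19 for *Serpinf2*.

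*Serpind1*, heparin cofactor II, gave the smallest p value between the kiwifruits. It ranged from 2.96 to 4.93 in Ch (4.43), 3.50 to 4.46 in ChGENE (3.88) and 3.49 to 5.01 in ChHAYW (4.82). Most ChGENE rats lay below most ChHAYW rats, but the ranges overlapped, with ChHAYW 5 at 3.49 the lowest of both groups. The log2 difference between ChGENE and ChHAYW was -0.70 (-1.12 to -0.27, unadjusted p = 0.0031, adjusted p = 0.301), and it was -0.88 under spike-in scaling and -0.65 with the close pairs averaged. Protein S, the cofactor of protein C, was also lower in the mean of ChGENE than of ChHAYW, with a difference for *Pros1* of -0.41 (unadjusted p = 0.0419, adjusted p = 0.587). *Pros1* ranged from -1.54 to -0.11 in Ch (-0.52), -1.63 to -0.47 in ChGENE (-1.10) and -1.43 to -0.22 in ChHAYW (-0.69).

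The complement inhibitor *Cfi*, a protease that cleaves C3b and C4b, had the smallest spread within diets of all 40 genes, with an SD of 0.17. It ranged from 7.34 to 7.83 in Ch (7.69), 7.03 to 7.63 in ChGENE (7.45) and 7.16 to 7.62 in ChHAYW (7.32), and differed from Ch by -0.27 and -0.33 (adjusted p = 0.162 and 0.110). *C4bpa* and *C4bpb*, the chains of C4b-binding protein, ranged in ChGENE from 4.78 to 7.26 (5.35) and from 6.29 to 7.65 (6.56). In Ch they ranged from 5.72 to 6.43 (6.19) and from 6.63 to 7.49 (6.91), and in ChHAYW from 5.48 to 6.05 (5.91) and from 5.92 to 7.05 (6.56). The differences in ChHAYW-Ch were -0.32 and -0.47 (adjusted p = 0.160 and 0.124). That of *C4bpa* in ChGENE-Ch was -0.40 and -0.88 without ChGENE 4 and ChGENE 5 (adjusted p = 0.459 and 0.0794). *Serping1*, the C1 inhibitor, had medians of 7.40, 6.97 and 7.05, *Vtn*, which codes for vitronectin, 8.18, 8.02 and 7.88, and *Proc*, which codes for protein C, 3.01, 2.70 and 3.34.

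ChGENE 4 and ChGENE 5 were both above all the other 22 arrays in 16 of the 40 genes (40%) and below them in 0, compared with 5.80% and 5.77% of all genes and 4.96% and 22.0% of the brightest 10%. These rats were picked out after their values were seen, and they are 1 of the 3 close pairs. Of the 16 genes, 11 were among the 16 complement genes, 3 among the 14 clotting genes and 2 among the 10 inhibitors. *C6* was 4.30 and 4.32 in these rats and 0.58 to 2.94 in the others. *C9* was 8.04 and 8.12, against at most 6.89 elsewhere. *Kng1* was 8.14 and 8.31, against at most 7.85. The mean of the pair exceeded the median of the other ChGENE rats by 2.82 on the log2 scale for *C6*, the widest distance of the 40 genes.

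*C4bpa* was 7.16 and 7.26 in these rats, against at most 6.43 in the others. *C1s* was 5.98 and 5.89 against at most 5.27, and *C1r* 6.80 and 6.76 against at most 5.99. *Fga* was 8.48 and 8.62 against at most 7.93, and *Fgg* 8.74 and 8.91 against at most 8.23. The remaining fibrinogen chain, *Fgb*, read 8.59 and 8.90 in these rats at its brightest probe, inside the range of the other arrays. The second *Fgb* probe reached 2.16 in ChGENE, 1.51 in Ch and 0.23 in ChHAYW, and its r with *Fga* was 0.93 within ChGENE. The levels of ChGENE 4 and ChGENE 5 at the second probe are not given here, so *Fgb* can be placed inside the range only at its brightest probe. The others of the 16 were *Cfd*, *Masp1*, *Mbl1*, *C5*, *C8a*, *Serping1*, *C2* and *C8b*. The other 24 genes were not above all other arrays in this pair, among them *C8g* (5.78 and 5.87), *Masp2* (3.83 and 4.02), *Mbl2* (1.95 and 1.80), *F12* (6.24 and 6.34) and *Plg* (7.17 and 7.26), which lay at the lower end. The pair-to-median difference had a median of 1.03 for the complement genes, 0.51 for the clotting genes and 0.29 for the inhibitors. Ch 1 and Ch 2 were above all other arrays in 0 of the 40 genes (0.666% of all genes) and below in 0 (0.546%). ChHAYW 6 and ChHAYW 7 were above in 0 (2.22% of all genes) and below in 5 (12.5%), beside 4.59% of all genes and 6.36% of the brightest 10%, and these 5 were *F7*, *F12*, *Fgb*, *C4bpb* and *Cfb*.

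**Figure D4:**
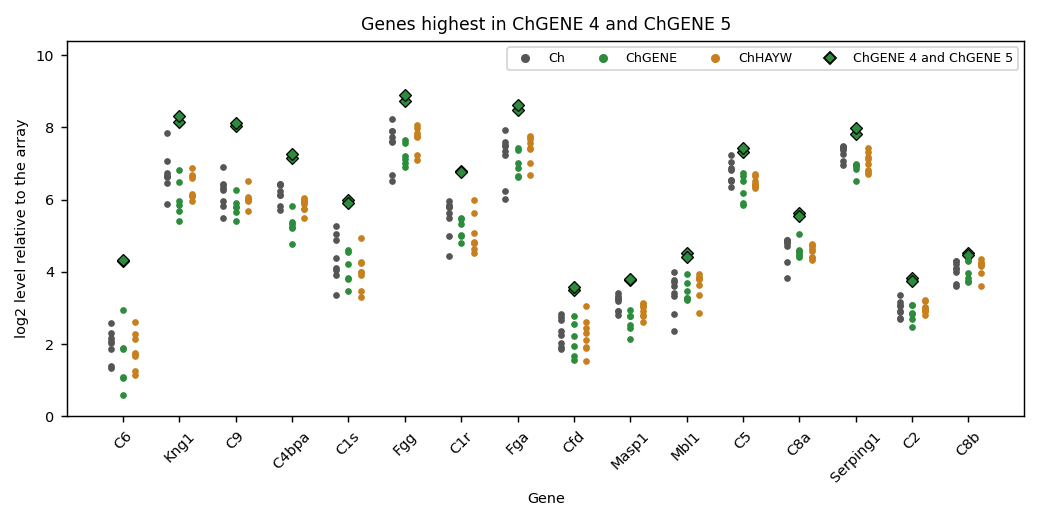
Levels of the 16 genes in which ChGENE 4 and ChGENE 5 (diamonds) were above all other rats, with 1 point per rat and diets side by side (log2 relative to the array). The distance is widest for *C6* (4.30 and 4.32 against at most 2.94) and narrow for *C8b* (4.52 and 4.47 against at most 4.37).

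Some acute phase genes outside the 40 stood apart in the same rats, with *A2m*, the alpha-2-macroglobulin of rat inflammation, at 5.65 and 5.70 against 0.21 to 2.54 elsewhere. *Orm1* was 8.96 and 9.08 against 2.12 to 6.58, and *Lcn2* 4.05 and 4.12 against -5.96 to 0.35. Of the acute phase list, 6 of 13 genes were above all other arrays, and the rest were not. *Hp*, *Itih3*, *Itih4* and *Saa4* lay inside the range of the other arrays. *Hp* was 9.00 and 9.24 against 8.32 to 10.43 (median 9.02). Of 7 Kupffer cell markers 5 were above all others, with a summed log2 level of 6.59 and 6.57 against 4.33 to 6.26, and of 8 sinusoidal endothelial markers also 5, with 5.59 and 5.48 against 4.53 to 5.53. Of 12 hepatocyte markers 1 was above and 2 were below, with sums of 11.4 and 11.6 against 11.1 to 12.1. Stellate cell markers were above in 3 and below in 1 of 8 (2.45 and 2.43 against 1.97 to 2.80), cholangiocyte markers above in 2 of 6, and lymphocyte and blood markers in 0 of 10. The part of these cell types in the levels of the complement genes was not tested.

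Without ChGENE 4 and ChGENE 5, 4 of the 40 genes were higher and 36 lower in ChGENE-Ch under the 75th percentile scaling. Spike-in scaling, under which 40 of 40 were higher with all rats, was not run without these 2 rats. The median was -0.29 beside -0.12 over all genes. An unadjusted p under 0.05 with a lower mean and a fold of at least 1.3 was found for 11 genes, and 0 passed after adjustment. With all rats, the lower genes by this rule made up no larger a share of the 40 than of all probes. The share of all probes without these 2 rats is not given here, so whether the 11 genes exceed it was not tested. Between ChGENE and ChHAYW 13 were higher and 27 lower (median -0.10), in place of 24 and 16.

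Ch 4 and Ch 7 formed a second pattern. *Fga* was 6.02 and 6.25 in these rats, *Fgg* 6.52 and 6.69, *F5* 1.47 and 1.90, and *Proc* 1.13 and 1.93, the lowest Ch values in each case. *F9*, on the other hand, was 5.61 and 5.04 and *F7* 2.65 and 2.24, the highest of all rats, as was *Plg* with 8.39 and 8.36. Under the 75th percentile scaling, genes of 1 cascade thus took opposite courses in the same rats. The levels of these rats under the other scalings are not given here. Ch 4 had the dimmest array of all, with a 75th percentile signal of 188, and Ch 7 had 335. At the other end ChHAYW 6, 7 and 8 gave the lowest *F9* (2.19, 2.35 and 2.33) and *F7* (0.12, 0.11 and 0.28).

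The levels of many of the genes moved with the brightness of the array, the 75th percentile of which is subtracted in each level. The r of the level with the log2 of the 75th percentile signal over the 24 arrays was -0.90 for *Fgb*, -0.83 for *Serpinc1*, -0.82 for *Plg* and -0.80 for *F2*. Each had a permutation p of 1e-05, the smallest that 100000 permutations can give, and an adjusted p of 1e-04 over the 40 relations computed, and rho was -0.83, -0.82, -0.72 and -0.77. Without Ch 4 and Ch 7, whose arrays were farthest from the median signal, they were -0.90, -0.84, -0.69 and -0.81. Within Ch, ChGENE and ChHAYW *Fgb* gave -0.88, -0.62 and -0.96. In the other direction *Proc* gave 0.64 and *F13b* 0.61, and 0.24 and 0.44 without Ch 4 and Ch 7, so that the r of *Proc* rested in large part on those rats. Within Ch, ChGENE and ChHAYW *Proc* gave 0.82, 0.65 and 0.18. In all, 20 of the 40 genes had an adjusted p under 0.05, 13 with r below 0 and 7 above. Since the 75th percentile is subtracted in each level, it enters both sides of these relations. The permutation does not allow for this, so its p values cannot separate the course of a gene from the scaling. The median r was -0.02 over the 40 genes and -0.32 over all genes. Such relations were as frequent on the whole array: r was below -0.6 for 11 of the 40 genes (27.5%), beside 28.8% of all genes and 19.8% of the brightest 10%, and above 0.6 for 3 (7.5%), beside 6.95% and 4.31%.

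With the array signal as a covariate, the log2 difference in ChGENE-Ch was -0.15 for *Fgb* and -0.14 for *Plg*, compared with -0.42 and -0.46 without it, and 0 of 40 genes passed in each comparison. The signal differed between the diets, and its part in these differences cannot be told apart from that of diet. Of the 5 genes with the smallest p values in ChHAYW-Ch, *C3* gave an r of -0.73 with the signal, *Serpinf2* -0.75, *Cfb* -0.64, *Serpinc1* -0.83 and *Cfi* -0.52. With the diet means removed from level and signal, these were -0.58, -0.58, -0.51, -0.74 and -0.19, so that the relation of *Cfi* lay mostly between the diets. The arrays of ChGENE 4 and ChGENE 5 had signals of 743 and 701, in the upper part of the ChGENE range, and the part of the signal in their levels was not tested.

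**Figure D5:**
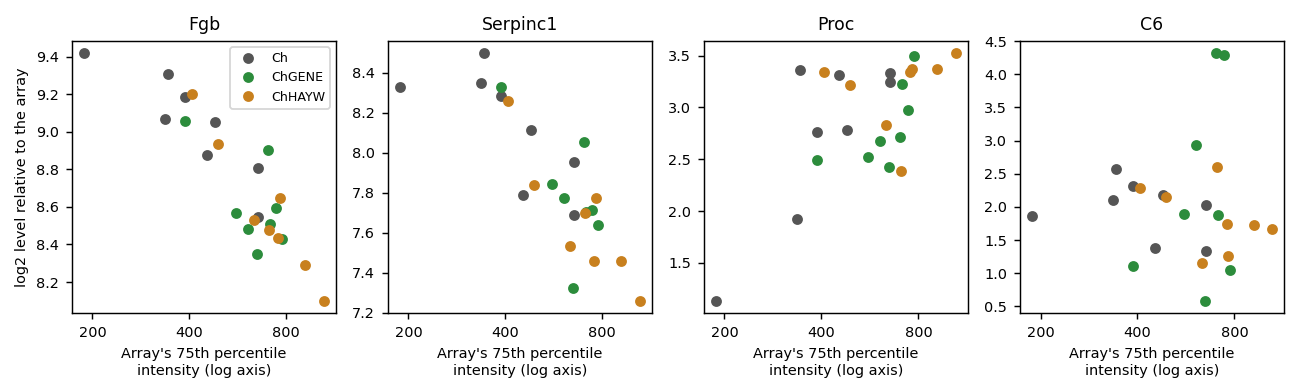
Level of *Fgb*, *Serpinc1*, *Proc* and *C6* in each rat (log2 relative to the array) against the 75th percentile intensity of its array on a log axis, coloured by diet. *Fgb* falls with the signal along the whole range (r = -0.90), and the 2 high *C6* points are ChGENE 4 and ChGENE 5.

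Partner genes other than fibrinogen were also compared across the rats. *C1r* and *C1s* gave an r of 0.93 (rho 0.89, adjusted p = 5.5e-05), 0.86 without ChGENE 4 and ChGENE 5, which were also the 2 rats farthest from the median, and 0.80, 0.99 and 0.91 within the diets. *C8a* and *C8b*, the neighbours on chromosome 5, gave 0.71 (rho 0.59, adjusted p = 0.00022), 0.61 without these rats and 0.85, 0.87 and 0.19 within the diets. *C4bpa* and *C4bpb* gave 0.66 (rho 0.68, adjusted p = 0.00124), and 0.05, 0.97 and -0.08 within the diets. Without the same rats they gave 0.44 (unadjusted permutation p = 0.0387, adjusted p = 0.107), so that part of this relation rested on ChGENE 4 and ChGENE 5. *C8a* and *C8g*, which form 1 protein, gave -0.28 (rho 0.04, adjusted p = 0.347), and 0.25 without these rats. *Mbl1* and *Mbl2* gave -0.44 (rho -0.14, adjusted p = 0.0703). *C8b* with *C8g*, *Masp1* with *Masp2* and *Pros1* with *C4bpb* gave 0.02, -0.17 and 0.01, and *Masp1* with *Masp2* gave 0.40 without ChGENE 4 and ChGENE 5. The median r over all 780 pairs of the 40 genes was 0.23, and with close pairs averaged the r of *C1r* and *C1s* was 0.90 and that of *C8a* and *C8b* 0.74.

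The SD within diets had a median of 0.389 over the 40 genes, beside 0.456 over all genes and 0.270 over the brightest 10%. The widest after *C6* were *Kng1* and *F9* with 0.74 and *C1s* with 0.72. The SD was largest in ChGENE for 24 of the 40 genes, and for 9 without ChGENE 4 and ChGENE 5. The median standard error of a log2 difference was 0.21 in ChGENE-Ch, 0.16 in ChHAYW-Ch and 0.18 between the kiwifruits.

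Other genes of the pathways gave no calls either. Of 20 further complement genes 0 passed in any comparison, and 15 were higher in ChGENE-Ch, 13 in ChHAYW-Ch and 16 between ChGENE and ChHAYW, with medians of 0.43, 0.14 and 0.26, all 3 above 0 also under quantile, cyclic loess and spike-in scaling. Without ChGENE 4 and ChGENE 5 the median was 0.11 in ChGENE-Ch and 0.03 between the kiwifruits, where 11 of 20 were then higher. The smallest p values in ChGENE-Ch were those of *Colec10*, a collectin (0.59, adjusted p = 0.0886), *Cfp*, which codes for properdin (0.75, 0.134), and *Crp*, C-reactive protein (0.74, 0.139), and 12 of the 20 were above all other arrays in ChGENE 4 and ChGENE 5. Of 20 further clotting and fibrinolysis genes 0 passed, with medians of -0.03, -0.21 and 0.04, which were 0.44, 0.44 and -0.15 under spike-in scaling, and -0.11 in ChGENE-Ch and -0.05 between the kiwifruits without ChGENE 4 and ChGENE 5. The smallest p in ChGENE-Ch was that of *Hrg*, histidine-rich glycoprotein, with -0.57 (adjusted p = 0.0608). Next came *F2rl1*, a dim protease-activated receptor with a level of -5.15 at most, and *F8*, factor VIII, with 0.42 (adjusted p = 0.0999). Of 13 further inhibitors 0 passed, with medians of 0.07, 0.02 and 0.16, which were 0.54, 0.67 and -0.02 under spike-in scaling. Without ChGENE 4 and ChGENE 5 the median turned to -0.07 in ChGENE-Ch and to -0.09 between the kiwifruits, with 4 higher and 9 lower in place of 11 and 2. The further inhibitors were led by *Anxa2*, an annexin that binds plasminogen on cells (0.78, adjusted p = 0.0697), *A2m* (1.40, 0.201) and *Procr*, the protein C receptor, which was not above background in Ch.

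The 40 genes had 48 probes, with 1 probe for 33 genes, 2 for 6 and 3 for *Masp1*. In ChHAYW-Ch a dimmer *Masp1* probe differed by -0.71 (adjusted p = 0.110), where the brightest gave -0.21. The second *Masp2* probe differed by 0.52 (unadjusted p = 0.0293, adjusted p = 0.157), where the brightest gave -0.09, so that the *Masp2* probes disagreed in sign.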

How the data were processed

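Liver RNA of 24 rats was measured on 1-colour arrays with 62976 spots. The intensities deposited by the authors come from Agilent Feature Extraction 10.10.1.1 (the submitters' processing notes and the file headers), with spatial and multiplicative trends removed, and are linear and not scaled between arrays. Probe coordinates follow rn4. The deposited value table differed from the scanner output in 0 of 1511424 spots. How the study scaled its arrays against each other is not stated in these sources.

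Spots marked as outliers were left out (for 45 of 728808 probe values all were marked, and these were kept). Log2 intensities were averaged per probe and the 75th percentile of each array subtracted. All 30367 probes were tested with limma 3.58.1 in R 4.3.3 on the 16 arrays of each comparison, with Benjamini-Hochberg adjustment over all probes, an adjusted p under 0.05 and a fold of at least 1.3. The study's methods name a t-test and these thresholds, and its supplement heads its lists with a moderated test. The procedure was tested on simulated data. Precision is set by 8 rats per diet. Correlations used 100000 two-sided permutations (1e+05) and adjustment over the relations named. Promoters and motif shares come from RefSeq, GRCr8.

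The 40 genes, their roles, the partner pairs and the lists of other genes and markers were chosen with earlier results of these data known. All 40 are accounted for. Values by diet are given for those with the smallest p, the highest and lowest levels in a role, the largest and smallest spread, partner pairs and disagreeing probes, and for up to 3 genes of each further pathway list. Rat numbers come from the labels and mark no shared litter or day. Same-numbered rats correlated at -0.35 to 0.23, so the numbers were not taken as pairs. The alternatives were normexp background correction (offset 50), quantile, median, spike-in and cyclic loess scaling, outlier spots kept, 1 fit of all arrays, the methods' t-test, a replicate block, a filter on dim probes, means over the probes of a gene and each rat left out. Averaging of close pairs, the array signal as a covariate and leaving out ChGENE 4 and ChGENE 5 were added after the data were seen.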

Additional observations from a re-analysis of the deposited data

Results flagged for a closer look

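In 4 of 120 combinations of gene and diet, the highest or lowest rat lay far from the other 7 of its group by Dixon's ratio of gap to range. Chance gives about 1 in 20, or 6 of 120. *F2* was 7.915 in Ch 3, below the next rat at 8.248. *Serpind1* was 3.49 in ChHAYW 5, below the next at 4.438, and *Masp2* was 3.878 in the same rat, below the next at 4.461. *C9* was 6.53 in ChHAYW 3, above the next at 6.064. Since ChGENE 4 and ChGENE 5 are close to each other, this ratio does not pick them out.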

How the results depend on the processing

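The count of 0 genes that passed in ChGENE-Ch became 1 with normexp background correction (*Plg*), 2 with median scaling (*Fgb* and *Plg*) and 1 with all 24 arrays in 1 fit (*Plg*), and 0 to 2 on leaving out single rats, with *Fgb* and *Plg* passing without Ch 3 and without ChGENE 2. In ChHAYW-Ch it became 1 with normexp (*Serpinc1*), 5 with median scaling (*C3*, *Cfb*, *Fgb*, *Serpinc1* and *Serpinf2*) and 0 to 6 on leaving out single rats, with these 5 without Ch 3 and *C4bpb* besides without ChHAYW 3. The probes that passed in ChGENE-Ch, ChHAYW-Ch and between the kiwifruits numbered 97, 0 and 2, and 10197, 11480 and 11 with normexp, 4623, 3240 and 10 with median scaling, 64, 0 and 18 with quantile, 147, 2 and 0 with spike-in and 72, 1 and 17 with cyclic loess scaling. They numbered 2863, 0 and 8 with all arrays in 1 fit, 245, 0 and 1 with the methods' t-test, 157, 0 and 21 with the filter on dim probes, 4, 0 and 0 with the replicate block and 0, 0 and 0 with close pairs averaged. In ChGENE-Ch 21 passed as higher and 76 as lower, and 141 and 6 with spike-in scaling. With the rat number as a replicate block 0 of 40 genes passed in each comparison, as without it. Own-number pairs exceeded an r of 0.1 in 2, 2 and 3 of 8 cases, and 0, 0 and 2 rats correlated best with their own number.

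Under spike-in scaling the median over all genes was 0.34, 0.50 and -0.19, and 26, 25 and 13 of the 40 genes changed sign. Medians of ChGENE-Ch then were 0.30 for the 40 genes, 0.55 for complement and 0.35 for clotting, and those of ChHAYW-Ch 0.46, 0.52, 0.54 and, for inhibitors, 0.36. The ChHAYW-Ch inhibitor median was -0.0350 with quantile and -0.0735 with cyclic loess scaling, and the ChGENE-Ch complement median -0.25 without ChGENE 4 and ChGENE 5. On leaving out single rats the medians of the 40 ranged from -0.22 to -0.11, -0.24 to -0.16 and -0.01 to 0.10, and that of complement in ChGENE-Ch from -0.07 to 0.15, with a changed sign in 3 of 16 fits. Correlations with quantile and spike-in scaling were 0.71 and 0.90 for *Fga* and *Fgb*, 0.74 and 0.89 for *Fgb* and *Fgg*, and -0.45 and 0.71 for *Mbl1* and *Mbl2*. Spike-in scaling gave 0.74 for *C8a* and *C8g*, 0.86 for *C8b* and *C8g*, 0.67 for *Masp1* and *Masp2* and 0.65 for *Pros1* and *C4bpb*, and *C4bpa* and *C4bpb* gave 0.44 without ChGENE 4 and ChGENE 5. The causes of these shifts were not tested. With 8 rats per diet, and 7 if the close pairs are single samples, log2 differences near the standard errors of 0.16 to 0.21 cannot be resolved.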
